A study of Homo sapiens with 6 samples.

Results

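The ubiquitin-specific peptidases (USPs) were examined in OVCAR8, an established cell line from a human ovarian cancer, after treatment with DMSO or with the splicing inhibitor pladienolide B. The members were the genes of the deposited table whose symbol is USP followed by a number, with or without a final X, leaving out USP39, which carries a USP name but acts as a splicing factor. This gave 50 of 38637 genes. Polyadenylated RNA was sequenced from 3 samples treated with DMSO and 3 treated with 2 nM pladienolide B, all from wild type cells and, per the paper's methods, all collected at 72 h. The labels do not say whether the 3 samples of a group came from separate cultures. The p-values therefore measure the spread between these samples, which may be technical and which the test partly shares across genes. A single cell line at 1 dose and 1 time was studied. Because RNA was taken from whole cultures, fewer cells of a kind and less RNA per cell cannot be told apart.

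Ubiquitin is a small protein that is attached to other proteins, often in chains, and that marks them for degradation by the proteasome or changes their location or activity. USPs form the largest family of deubiquitinases, the proteases that remove it again, and most are cysteine proteases that share a catalytic fold but differ in their targets. Pladienolide B binds SF3B1, a subunit of the U2 small nuclear ribonucleoprotein, which recognises the 3′ part of introns before they are spliced out.

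The 3′ ends of the longest intron of 5 members are shown because they are the kind of sequence at which the drug's target acts, in the members with the largest falls and rises. Each is the last 40 bases of the intron in the gene's canonical transcript (GENCODE v44, GRCh38), written 5′ to 3′, with the terminal AG of the intron in capitals.
USP24, intron 1 of 67, chr1:55178133-55178172, minus strand: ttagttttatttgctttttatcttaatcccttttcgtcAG
USP43, intron 14 of 14, chr17:9727914-9727953, plus strand: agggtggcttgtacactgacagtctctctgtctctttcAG
USP5, intron 1 of 19, chr12:6855361-6855400, plus strand: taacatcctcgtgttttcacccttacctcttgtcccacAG
USP36, intron 4 of 20, chr17:78829008-78829047, minus strand: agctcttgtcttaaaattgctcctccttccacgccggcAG
USP2, intron 2 of 12, chr11:119360235-119360274, minus strand: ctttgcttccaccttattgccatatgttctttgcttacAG
The values analysed here are 1 number per gene and sample and do not separate introns from exons, so no splicing measurement is attached to these sites.

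Recovered reads on genes ranged from 22621503 to 26130876 per sample. The values below are reads per gene after the authors' adjustment to a common library size, called adjusted reads. Of 16178 genes that passed a filter on low values, 7695, or 47.6%, had an adjusted p under 0.05 (limma, Benjamini-Hochberg over all genes tested), with 22.4% higher and 25.2% lower in pladienolide B. The 3 DMSO samples were not equally alike, and DMSO replicate 2 differed more from the other two than those differed from each other, with a chi-square per degree of freedom of 7.25 and 7.34 against 2.01. Between pladienolide B samples it was 3.17, 3.24 and 4.82. Of the markers of ovarian cancer cells, PAX8 lay between 4011 and 4581 adjusted reads and KRT8 between 40092 and 53035 over the 6 samples, and PAX8 and EPCAM did not pass the threshold. KRT8 and KRT18 were higher in pladienolide B, while KRT7 was lower, with 11981 to 13345 adjusted reads in DMSO and 6676 to 9417 in pladienolide B. WT1 and MUC16 lay between 10.1 and 33.8. Among leukocyte markers, PTPRC lay at or below 2.00 adjusted reads and CD3E was listed at 0, and the fibroblast marker DCN lay at or below 2.07, although COL1A1 lay between 5602 and 6902.

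The summed level of the family changed little, and its members moved in both directions. Of the 50 USP genes, 45 passed the filter on low values, of which 13 were higher, 12 were lower and 20 did not pass the threshold. The share called was 55.6%, beside 47.6% of all genes tested and 51.1% of protein-coding genes. In 29 of the 45, the 3 pladienolide B values did not overlap the 3 DMSO values. Beside this stand 8941 of the 16178 genes tested, or 55.3%, and 8069 of the 13805 protein-coding genes tested. The log2 changes ran from -1.43 to 0.73 with a median of 0.03, and the median of all genes tested was -0.0042. A change of at least 2-fold was reached by 2 members, USP24 and USP43, both lower, beside 3.93% of all genes tested that passed the test and changed at least 2-fold. Summed over the 50 genes, the samples held 84774 to 85456 adjusted reads in DMSO and 81433 to 82566 in pladienolide B, which is 0.337% to 0.345% of all adjusted reads in each sample. The mean sum in pladienolide B was 96.5% of that in DMSO, and 99.3% when USP24 was left out.

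**Figure D1:**
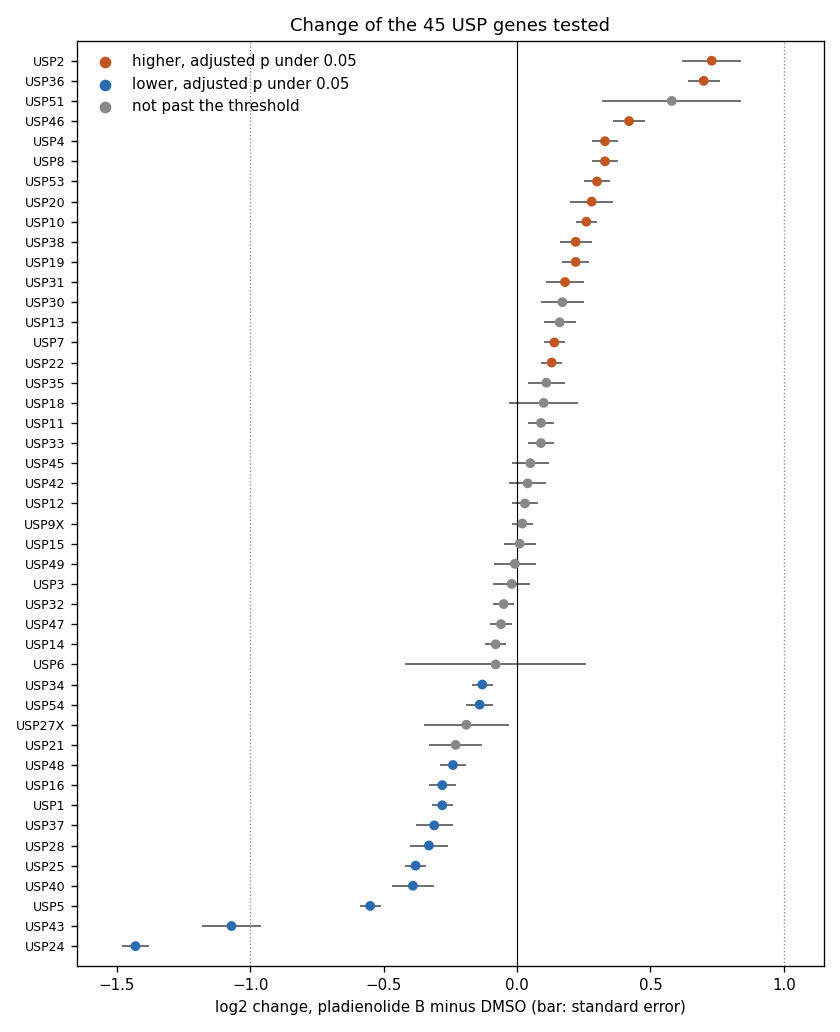
The log2 change of each of the 45 USP genes tested, pladienolide B minus DMSO, on the log2(value + 1) scale; bars are standard errors, n = 3 samples per group, colour marks the call and dotted lines mark 2-fold. The changes run from -1.43 for USP24 to 0.73 for USP2, and USP24 and USP43 are the only points beyond a 2-fold line.

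USP24 fell furthest in the family. USP24 is a large deubiquitinase whose reported substrates include the DNA damage sensor DDB2 and the survival protein MCL-1. It lies at chr1:55066359-55215374 on the minus strand (GRCh38), spans 149 kb with 67 introns and overlaps no other gene of the table. The DMSO samples held 3727, 4022 and 3885 adjusted reads, and the pladienolide B samples held 1473, 1378 and 1462. Each treated sample lay far below each control sample. The mean went from 3878 ± 148 (SD, n = 3) to 1438 ± 51.5 (SD, n = 3), or 37.1% of the DMSO mean. The log2 change was -1.43 with a standard error of 0.05 (limma, adjusted p = 2.6e-12), and it stayed between -1.46 and -1.40 when any 1 sample was left out. Of the 16178 genes tested, 78 fell further. Of the 5593 tested genes with a mean of at least 1000 adjusted reads, 9 fell further, and of the 2837 that span at least 100 kb, 2 did. USP24 made up 4.56% of the summed USP reads in DMSO and 1.75% in pladienolide B.

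USP43, a less studied member at chr17:9643493-9729687, was the other gene that fell by more than 2-fold. It held 433, 391 and 411 adjusted reads in DMSO and 164, 227 and 199 in pladienolide B. All treated values lay below all controls, although the spread among the treated samples was wider than for USP24. The mean fell to 47.8% of the DMSO mean, a log2 change of -1.07 with a standard error of 0.11 (limma, adjusted p = 6.4e-07).

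USP5, also called isopeptidase T, takes apart ubiquitin chains that are not attached to any protein and so returns single ubiquitin molecules to use. It lies at chr12:6852150-6866632 and is one of the shortest genes of the family at 14.5 kb. The DMSO samples held 4327, 4507 and 4405 adjusted reads and the treated samples 2931, 2963 and 3179. All treated values lay below all control values. The mean fell to 68.5% of the DMSO mean, with a log2 change of -0.55 and a standard error of 0.04 (limma, adjusted p = 4.2e-08).

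The next falls were smaller. USP40, a little studied member at chr2:233475521-233566789, held 599, 651 and 687 adjusted reads in DMSO and 531, 447 and 503 in pladienolide B. Its groups were apart, and the log2 change was -0.39 with a standard error of 0.08 (limma, adjusted p = 0.0007). USP25, a deubiquitinase of the tankyrases at chr21:15729947-15880064, held 3369, 3489 and 3427 adjusted reads in DMSO and 2737, 2615 and 2527 in pladienolide B. The groups were again apart, and the log2 change was -0.38 with a standard error of 0.04 (limma, adjusted p = 2.3e-06).

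The largest rises were those of USP2 and USP36. USP2, which stabilises cyclin D1, is at chr11:119355215-119381690 and ranked 41 of the 50 members per kb of exon in DMSO. It held 174, 141 and 185 adjusted reads in DMSO and 282, 268 and 277 in pladienolide B. Every treated sample was above every control sample, and the log2 change was 0.73 with a standard error of 0.11 (limma, adjusted p = 5.8e-05). USP36, a nucleolar deubiquitinase that acts on MYC in the nucleolus, is at chr17:78787381-78841439. It held 1013, 1059 and 1147 adjusted reads in DMSO and 1727, 1798 and 1692 in pladienolide B. The treated values formed a narrow band above the control values, and the mean rose to 162% of the DMSO mean, a log2 change of 0.70 with a standard error of 0.06 (limma, adjusted p = 3.8e-08).

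USP46, USP4 and USP8 rose by smaller steps. USP46, which needs the protein WDR48 for its activity, is at chr4:52590960-52659301. It held 649.8, 632 and 604 adjusted reads in DMSO and 816, 861 and 849.8 in pladienolide B, with a log2 change of 0.42 and a standard error of 0.06 (limma, adjusted p = 3.2e-05). USP4, at chr3:49277144-49340053, acts with SART3 on the spliceosome protein PRPF3 among other targets. It held 1327, 1335 and 1246 adjusted reads in DMSO and 1625, 1639 and 1656 in pladienolide B, with a log2 change of 0.33 and a standard error of 0.05 (limma, adjusted p = 4.1e-05). The control and treated values of both genes were well apart. USP8, at chr15:50424359-50514421, removes ubiquitin from receptors on endosomes. It held 1816, 1877 and 1907 adjusted reads in DMSO and 2463, 2314 and 2256 in pladienolide B, with a log2 change of 0.33 and a standard error of 0.05 (limma, adjusted p = 3.3e-05). Its treated samples also all lay above its controls.

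**Figure D2:**
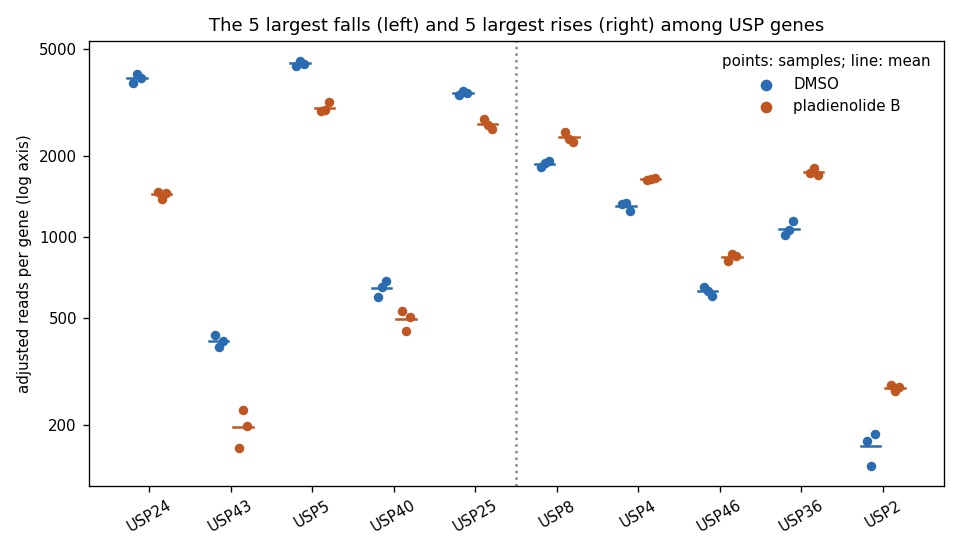
Adjusted reads in each sample (points, log axis) with the group mean (line) for the 5 members with the largest falls and the 5 with the largest rises among those past the threshold. For each of the 10 genes the pladienolide B points lie on 1 side of the DMSO points, and USP24 moves from a mean of 3878 to 1438.

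Relative to each other, the members changed places. Divided by the length of the canonical transcript's exons, so that levels can be compared between genes, USP1 was the most abundant member in both groups, with 2001 adjusted reads per kb in DMSO and 1643 in pladienolide B. USP5 was second in DMSO with 1396 adjusted reads per kb, and USP10 was second in pladienolide B with 1404. USP24 had 359 adjusted reads per kb in DMSO and 133 in pladienolide B, and so went from rank 15 to rank 29 of the 50.

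Members that act on chromatin and in DNA repair, such as the deubiquitinases of histones H2A and H2B, were split. Of 12 tested of 13, 2 were higher and 3 were lower, or 41.7% called beside 47.6% of all genes tested. The counts of the further role groups stand against the same background, and groups of this size are described only. Each member was placed in 1 group only, a choice on which these counts depend. USP1, which together with WDR48 removes ubiquitin from FANCD2 and PCNA, fell from 7207 ± 116 to 5919 ± 232 adjusted reads (SD, n = 3), a log2 change of -0.28 with a standard error of 0.04 (limma, adjusted p = 2.6e-05). USP16, a deubiquitinase of H2A, held 1687, 1906 and 1790.2 adjusted reads in DMSO and 1517, 1473 and 1436 in pladienolide B, a log2 change of -0.28. USP48, which acts on H2A, had a log2 change of -0.24. The groups did not overlap for these 3 genes. USP7, which stabilises MDM2, and USP22, the deubiquitinase of the SAGA coactivator complex, were called higher with log2 changes of 0.14 and 0.13. Those calls were not stable: the adjusted p was 0.072 for USP7 without DMSO replicate 3 and 0.066 for USP22 without pladienolide B replicate 3 (limma). With all 6 samples but without limma's variance trend, described below, it was 0.061 for USP7 and 0.077 for USP22. The remaining 7 tested members, USP3, USP11, USP21, USP27X, USP45, USP49 and USP51, did not pass the threshold. USP21 came nearest of these among the falls, with a log2 change of -0.23 (limma, adjusted p = 0.068), and passed without DMSO replicate 3 (0.046) or without pladienolide B replicate 1 (0.014).

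Members tied to the cell cycle, MYC and the nucleolus included both directions as well, with 2 higher and 2 lower of 5, beside 22.4% and 25.2% of all genes tested. USP2 and USP36 were the higher ones. USP28, a deubiquitinase of MYC in the nucleoplasm, held 1124, 1001 and 1197 adjusted reads in DMSO and 882, 840.5 and 917 in pladienolide B, a log2 change of -0.33 with a standard error of 0.07 (limma, adjusted p = 0.00069). USP37, which acts on cyclin A, held 879, 798 and 892 in DMSO and 653, 719 and 697 in pladienolide B, a log2 change of -0.31 with a standard error of 0.07 (limma, adjusted p = 0.00096). Both sets of treated values lay below their controls. USP42, a deubiquitinase of p53, did not pass the threshold, with a log2 change of 0.04 and a standard error of 0.07.

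Of the 3 members that act at the proteasome or on free chains, USP5 was lower and 2 did not pass the threshold. USP14, which sits on the proteasome and trims ubiquitin from its substrates, had a log2 change of -0.08 with a standard error of 0.04. USP13 had a log2 change of 0.16 (limma, adjusted p = 0.052), and it passed the threshold without DMSO replicate 2 (0.0097) or without pladienolide B replicate 3 (0.026).

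Among members that act in membrane traffic, at mitochondria or at the endoplasmic reticulum, 4 of 9 were higher and 0 were lower, beside 22.4% and 25.2% of all genes tested. The 4 were USP8, USP10, USP19 and USP20. USP10 binds G3BP1 and acts on p53, so its place in this group was a choice. It held 3889.9, 3808 and 3971 adjusted reads in DMSO and 4720.1, 4612 and 4681 in pladienolide B, a log2 change of 0.26 with a standard error of 0.04 (limma, adjusted p = 4.4e-05). USP19, anchored in the endoplasmic reticulum, had a log2 change of 0.22, and USP20, which recycles the beta-adrenergic receptor, had a log2 change of 0.28. The groups were apart for each of them. The 5 others were USP6, USP9X, USP30, USP32 and USP33, with log2 changes between -0.08 and 0.17. USP9X, a large X-linked deubiquitinase, held 5371, 5295 and 5341 adjusted reads in DMSO and 5448, 5242 and 5496 in pladienolide B, with overlapping groups and a log2 change of 0.02 ± 0.04 (SE).

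Of the 8 members in signalling and the immune response, 2 were higher and 2 were lower. USP4 and USP46 were higher, and USP25 and USP34 were lower. USP34, which acts on axin in Wnt signalling and is the longest member at 284 kb, went from 3267, 3163 and 3255 adjusted reads in DMSO to 2915, 2969.6 and 2962 in pladienolide B. Its groups did not overlap, but the log2 change was -0.13, and its adjusted p reached 0.065 when 1 of 3 samples was left out, namely DMSO replicate 1, DMSO replicate 3 or pladienolide B replicate 1. USP12, USP15, USP18 and USP47 did not pass the threshold. USP18, which removes the ubiquitin-like protein ISG15 and is induced by interferon, held 149, 157 and 182 adjusted reads in DMSO and 159.7, 199 and 166 in pladienolide B, so its groups overlapped.

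Of the remaining 12 members, whose functions are varied or little known, 8 were tested, of which 3 were higher and 4 were lower. The lower ones were USP24, USP40, USP43 and USP54. The higher ones were USP31, USP38 and USP53. USP38 had a log2 change of 0.22 with a standard error of 0.06 (limma, adjusted p = 0.0034). USP35 did not pass the threshold, with a log2 change of 0.11.

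Too few reads were found for 5 members to be tested: USP26, USP29, USP41, USP44 and USP50. In recovered reads, USP26 and USP29 had 0 in each DMSO sample and at most 2 in a treated sample, USP41 and USP44 had 0 to 4 in any sample, and USP50 had 2 to 7. With at most 7 reads in a library of at least 22621503, no difference was detectable at this depth.

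The members were counted by gene span. Among the 32 members tested that span under 100 kb, 13 were higher and 6 lower. Among the 13 that span 100 kb or more, 0 were higher and 6 were lower, namely USP24, USP25, USP34, USP37, USP48 and USP54. Over all genes, 22.9% of the 13341 tested below 100 kb were higher and 24.2% lower, and 19.7% of the 2837 tested at or above 100 kb were higher and 29.9% lower. The 7 long members that did not pass the threshold were USP9X, USP12, USP13, USP15, USP32, USP47 and USP49, with log2 changes from -0.06 to 0.16. On either side of the bound, the longest member below it was USP40 with 91.3 kb, and the shortest above it was USP49 with 105 kb. The 13 higher members spanned 12.9 to 90.1 kb with a median of 62.9 kb, and the 12 lower ones 14.5 to 284 kb with a median of 98.6 kb. The 0 among long members was not stable, because USP13, which spans 136 kb and had an adjusted p of 0.052, passed as higher under several other settings. Its adjusted p was 0.0097 without DMSO replicate 2 and 0.026 without pladienolide B replicate 3 in limma, and 0.042 in edgeR's test on recovered reads. The difference between long and short members was not tested.

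**Figure D3:**
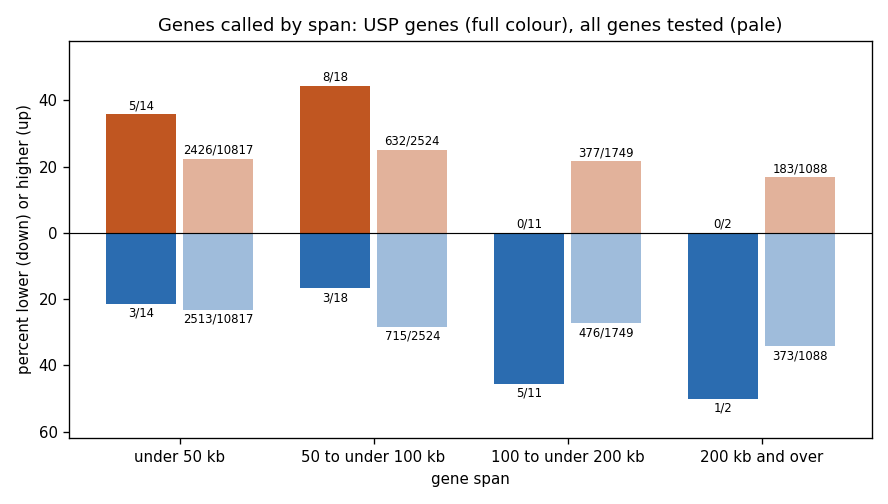
Percent of genes called higher (up) and lower (down) in 4 classes of gene span, for the USP genes (full colour) and all genes tested (pale), with the number called over the number tested at each bar. Of the USP genes, 5 and 8 are higher in the 2 classes below 100 kb and 0 in the 2 classes above it, while lower calls occur in every class.

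The relation between span and change was weak when taken over all members. Over the 45 genes tested, Spearman's rho between span and log2 change was -0.28 and Pearson's r with the logarithm of span was -0.17. Without USP24, rho was -0.24 and r was -0.11 over 44 genes. Over all 16178 genes tested, rho was -0.04. These are descriptions across genes that share the same 6 libraries, and genes are not replicates. The 2 longest members show how loose the relation is: USP34, with 284 kb, and USP32, with 245 kb, had log2 changes of -0.13 and -0.05, whereas USP5, with 14.5 kb, fell by 0.55 on the log2 scale.

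The number of introns gave a similar picture. The rank correlation between intron number and log2 change was -0.35 over the 44 tested members with an intron, and -0.30 without USP24, beside -0.07 over 14479 tested genes. The higher members had 8 to 30 introns with a median of 18, and the lower members 8 to 79 with a median of 25. The total length of the exons showed rho of 0.04, and the length of the longest intron showed -0.13. Against the size of the change, whatever its direction, rho was -0.38 for the longest intron and -0.26 for span. The same values over all genes tested were -0.02 and -0.05. The share of pyrimidines was taken in 30 bases at the intron end, leaving out the terminal AG and the base before it. The median of this share over a gene's introns had a median of 66.7% among the higher members and 68.3% among the lower members. Its rho with the log2 change was 0.0034 over the 44 members.

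**Figure D4:**
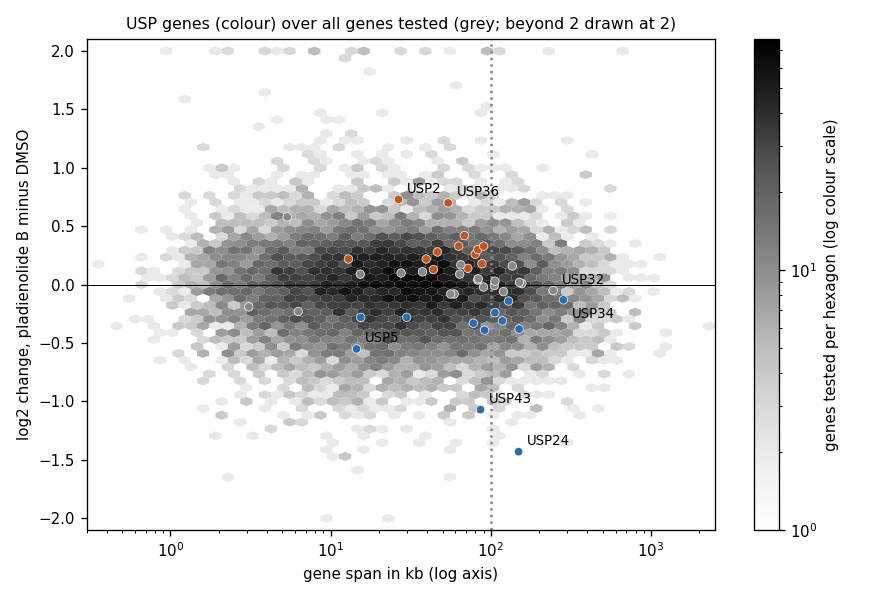
Log2 change, pladienolide B minus DMSO, against gene span (log axis) for the 45 USP genes tested (points, orange higher, blue lower, grey not past the threshold) over the density of all genes tested (grey hexagons). The 13 orange points lie left of the dotted line at 100 kb, with USP13 (136 kb, adjusted p = 0.052, limma) just short of the threshold on its right, USP24 lies at 149 kb with -1.43, and the 2 longest members lie near 0.

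Close relatives within the family did not always move alike. Of 13 sets of paralogs with all members tested, 2 held 1 higher and 1 lower gene, 1 set was lower in both genes, 1 set had no call, and 9 had some members called in 1 direction and others not called. Beside this, 55.6% of all members tested and 47.6% of all genes tested were called. No such count was made for sets of unrelated genes, so these counts are descriptions only. USP31 and USP43 formed the first split pair. USP31 held 653, 605 and 618 adjusted reads in DMSO and 699, 746 and 675 in pladienolide B, a log2 change of 0.18 (limma, adjusted p = 0.038), and this call was lost without any 1 of 4 samples (adjusted p up to 0.16 without pladienolide B replicate 2; the others were DMSO replicates 2 and 3 and pladienolide B replicate 1). The log2 ratio of USP31 to USP43 lay between 0.59 and 0.63 in DMSO and between 1.72 and 2.09 in pladienolide B, a difference of 1.25 ± 0.12 (SE, n = 3). Because both genes had groups apart in opposite directions, a permutation test of this ratio could give only its smallest p and decides nothing.

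USP53 and USP54 formed the other split pair. USP53, a protein of tight junctions, held 2082, 1991 and 2077 adjusted reads in DMSO and 2467, 2671 and 2444 in pladienolide B, a log2 change of 0.30 with a standard error of 0.05 (limma, adjusted p = 7.7e-05). USP54 held 1796, 1873 and 1840.3 in DMSO and 1642, 1707 and 1648 in pladienolide B, a log2 change of -0.14 (limma, adjusted p = 0.021). The call of USP54 was lost, with an adjusted p of up to 0.076, without DMSO replicate 3 or pladienolide B replicate 1 or 3. The log2 ratio of USP53 to USP54 rose from 0.09 to 0.21 in DMSO to 0.57 to 0.65 in pladienolide B, a difference of 0.44 ± 0.04 (SE, n = 3). Here too, the groups of both genes were apart in opposite directions, so a permutation test decides nothing. Both pairs were chosen for their calls, so these ratios are descriptions.

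USP25 and USP28 were the set with both genes lower, with log2 changes of -0.38 and -0.33. In the remaining sets, the called member and its relatives are given side by side. USP46 had a log2 change of 0.42 and USP12 of 0.03, although both use WDR48. USP36 had 0.70 and USP42 0.04, and USP2 had 0.73 and USP21 -0.23. USP5 had -0.55 and USP13 0.16. USP4 had 0.33, USP11 0.09 and USP15 0.01. USP20 had 0.28 and USP33 0.09, and USP38 had 0.22 and USP35 0.11. USP16 had -0.28 and USP45 0.05. USP22 had 0.13, USP27X -0.19 and USP51 0.58, where USP51 rested on 18.6 to 45.8 adjusted reads per sample. USP32 and USP6, which arose from a fusion with part of USP32 and shares much of its sequence, had -0.05 and -0.08. A call in 1 gene and not in its relative does not show that they differ, and these differences were not tested.

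Reads of near-identical or overlapping genes may have been assigned to the wrong member, since it is not stated whether strand was used. USP6 and USP32, and USP18 and USP41, share long similar stretches. USP8 overlaps USP50 on the opposite strand over 13860 bases, and USP50 was near 0. It also overlaps the lncRNA LOC107984741 over 4055 bases, with means of 9.32 in DMSO and 3.8 in pladienolide B. USP54 overlaps the antisense gene PPP3CB-AS1 over 9772 bases, which fell from a mean of 173 to 88.9 adjusted reads, and USP34 overlaps the pseudogene AHSA2P over 1463 bases, which fell from 954 to 760.1. The part of these in the falls of USP54 and USP34 was not tested. USP6 overlaps ZNF232, which was higher. On the opposite strand, USP45 overlaps TSTD3 over 83446 bases, USP35 overlaps GAB2 over 10892 and USP37 overlaps VIL1 over 3045. TSTD3, GAB2 and VIL1 did not pass the threshold, but GAB2, with means of 1173 and 1099, lay above USP35. Further overlaps are not listed. Of the 10 members given in full above, USP24, USP5, USP40, USP25, USP2, USP36 and USP46 overlap no other gene of the table, USP43 overlaps a lncRNA with a mean under 4, and USP4 overlaps C3orf62 by 89 bases.

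The genes listed under deubiquitinase families outside the USP name also moved in both directions. Of 40 tested (of 43), 13 were higher and 10 lower, with a median log2 change of -0.0048. These lists go by family, so they also hold genes with other roles, such as EIF3H and PAN2. The share called was 57.5%, beside 47.6% of all genes tested and 51.1% of protein-coding genes. BAP1, a nuclear deubiquitinase of H2A, was the only one of the 4 UCH enzymes called, and it rose by 0.38 on the log2 scale, from 3379, 3448 and 3620.4 adjusted reads in DMSO to 4589.8, 4409 and 4563 in pladienolide B. Of the OTU enzymes, 6 were higher and 3 lower of 15. TNFAIP3, a brake on NF-kB signalling, held 633, 627 and 699 adjusted reads in DMSO and 1083, 1014 and 769.7 in pladienolide B, a log2 change of 0.53 with a standard error of 0.10 (limma, adjusted p = 0.00022). OTUD3 had a log2 change of 0.38. The largest falls past the threshold in the OTU list were OTUD6B with -0.54 and YOD1 with -0.43.

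JOSD2 had the largest fall of all these genes. This small Josephin domain enzyme held 435, 462 and 474 adjusted reads in DMSO and 246, 276 and 248 in pladienolide B, a log2 change of -0.83 with a standard error of 0.09 (limma, adjusted p = 6.7e-07). JOSD1 had a log2 change of 0.13, a call that was lost without any 1 of 3 samples (DMSO replicate 1, pladienolide B replicate 2 or 3; adjusted p up to 0.075). Of the 11 genes of the JAMM list, 3 were higher and 3 lower. MPND had a log2 change of -0.67 and EIF3H, a subunit of a translation initiation factor, of -0.42. BRCC3, which trims chains at DNA breaks, had 0.18, and STAMBPL1 had 0.40, which was not past the threshold without DMSO replicate 3, pladienolide B replicate 1 or pladienolide B replicate 3 (adjusted p up to 0.187). Of 4 tested genes of the MINDY and ZUP1 families, MINDY3 (-0.30) and MINDY2 (-0.24) were lower. Of 3 genes with the USP fold under another name, the NF-kB regulator CYLD (0.28) and USPL1 (0.23, not past the threshold without DMSO replicate 1 or pladienolide B replicate 1, adjusted p up to 0.067) were higher, and the RNA-trimming factor PAN2 (-0.53) was lower.

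Genes listed as USP partners mostly did not pass the threshold: of 12, 2 were higher and 1 was lower, which is 25.0% called beside 47.6% of all genes tested. G3BP1, the partner of USP10, had a log2 change of 0.15. STAM, a partner of USP8 on endosomes, had 0.18, which was not past the threshold without DMSO replicate 1 or pladienolide B replicate 2 (adjusted p up to 0.103), and its relative STAM2 had -0.30. UBA6 and UBA1, the E1 enzymes that activate ubiquitin and so start the cascade, were both lower. UBA6 held 7020.5, 6609.6 and 6808 adjusted reads in DMSO and 4869, 5046 and 4775 in pladienolide B, a log2 change of -0.48 with a standard error of 0.04 (limma, adjusted p = 9.2e-08). UBA1 held 9739, 9683 and 9497 in DMSO and 6962, 6868 and 7495 in pladienolide B, a log2 change of -0.44 with a standard error of 0.04 (limma, adjusted p = 2.5e-07). Treated and control values of both genes were far apart.

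**Figure D5:**
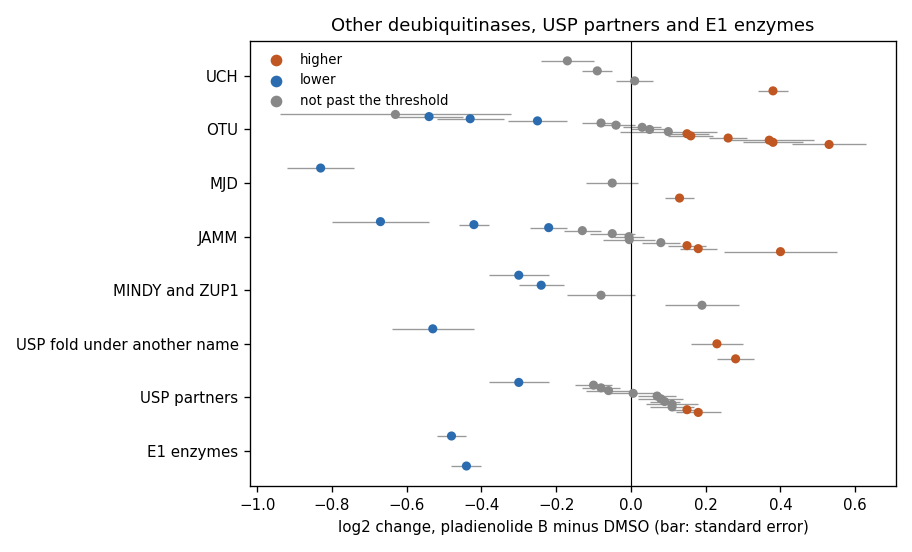
Log2 change, pladienolide B minus DMSO, of each tested gene in the other deubiquitinase families, the USP partners and the E1 enzymes; bars are standard errors and colour marks the call. Both E1 enzymes lie on the lower side, at -0.48 and -0.44, and the deubiquitinase families hold points on both sides of 0, with JOSD2 lowest at -0.83.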

How the data were processed

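RNA from 3 DMSO and 3 pladienolide B samples of OVCAR8 was sequenced by the study. The paper's methods name hg38, hisat2 and DESeq2; the submitters' processing notes name HISAT2, HTSeq 0.12.4, DESeq2 and hg19. The deposited positions are GRCh38 by comparison with GENCODE v44, which places 50 of 50 members at an overlapping position. Gene models and strand use in counting are not given in the sources used here. The authors deposited for each gene and sample a signal that is not a whole number. The values follow edgeR's quantile adjustment of counts (common dispersion 0.0027). Inverting it gave whole reads within 0.1 for 97.4% of 96432 values of 10 or more and for 100% of smaller values above 0.5. The deposited log2 fold changes, p-values and q-values were not used.

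The plan named limma for adjusted values. limma 3.58.1 was fitted with a variance trend on log2(value + 1), two-sided, on 16178 genes kept by filterByExpr (minimum 10) of edgeR 4.0.16 in R 4.3.3, with Benjamini-Hochberg adjustment. Fold changes are on that scale, and the pseudocount of 1 makes those of low genes smaller. A called gene has an adjusted p under 0.05, and higher, lower, rose and fell refer to pladienolide B against DMSO. Recovered reads were tested with edgeR's quasi-likelihood test and DESeq2 1.42.0 as alternatives, with other filters, a pseudocount of 0.1, no variance trend, the replicate number as a term, and each sample left out in turn. edgeR called 7739 genes. The script was tested on simulated data. Span is end minus start plus 1 of the deposited position. Introns and exonic lengths are those of GENCODE's canonical transcripts, and sequences are from hg38.

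The members and the gene lists were chosen with earlier results of these data known. Named in full are USP24, the 5 largest rises and falls among members past the threshold and members changed 2-fold, then paralogs side by side, and for other lists the 2 largest rises and falls past the threshold. Other genes, among them the overlapping genes, and the per-sample values of further members, were chosen after their values were seen. Recovered reads ranged from 22621503 to 26130876 per sample, and genes with few reads have the larger standard errors. Results on some genes of 1 list are not reported here.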

Additional observations from a re-analysis of the deposited data

How the results depend on the processing

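Over the 14 alternatives, the number of USP genes called stayed between 20 (limma without the variance trend) and 26 (edgeR on recovered reads), beside 25, and that of all genes called between 6381 and 7836. limma shares the spread across genes with or without the variance trend, which lets the shared part depend on a gene's level. Without the trend, the smallest adjusted p-values were far larger. The adjusted p was then 0.00065 against 2.6e-12 for USP24, 0.0016 against 3.8e-08 for USP36 and 0.0018 against 4.2e-08 for USP5 (limma). DESeq2 called 23 USP genes and 6985 genes in all. Without any 1 sample, 22 to 25 USP genes and 16 to 22 genes of the other deubiquitinase families were called. Without DMSO replicate 2, the sample that stood apart, 25 USP genes were called. The rank correlation of span and change over USP genes lay between -0.32 and -0.24. For single members, 590 of 630 values kept direction and call, 21 lost the call (USP7, USP22, USP31, USP34 and USP54) and 7 gained it (USP13 and USP21). The other 12 changed sign, in genes that never passed: USP49 had a log2 change of 0.0011 in edgeR with RLE factors and in DESeq2. Without any 1 sample, USP49 ranged from -0.07 to 0.03 (0.02 without DMSO replicate 3 or pladienolide B replicate 1), USP15 from -0.03 to 0.07 (-0.0048 without DMSO replicate 3, -0.01 without pladienolide B replicate 3), USP3 from -0.08 to 0.02, USP6 from -0.23 to 0.12 (0.05 without DMSO replicate 3) and USP42 from -0.02 to 0.08. The cause of these changes was not tested. USP24 and USP43 were called and 2-fold lower in the main fit, and USP43 came to -0.95 when the most influential sample was left out.

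Same-numbered samples did not deviate together (r = -0.0183, -0.0175 and 0.00261). No pairing by number was seen, and the labels do not say whether there was any. With the replicate block, 7349 genes in all and 25 USP genes (13 higher, 12 lower) were called, with USP13 gained (adjusted p = 0.039, limma) and USP31 lost (0.055).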

Other observations

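The table also lists transcripts named after USP genes that lie beside or opposite them, and these were looked at after the values were known. USP27X-DT, which starts next to USP27X at chrX:49876724-49879356, held 25.4, 20.2 and 29.4 adjusted reads in DMSO and 16.6, 11.8 and 13.0 in pladienolide B. All treated values lay below all controls, and the log2 change was -0.81 with a standard error of 0.31 (limma, adjusted p = 0.043), beside -0.19 for USP27X itself, which did not pass the threshold. USP2-AS1, beside USP2, ranged from 28.2 to 38.9 adjusted reads in DMSO and from 26.1 to 29.1 after pladienolide B, and did not pass the threshold (log2 change -0.28 ± 0.25, SE), beside 0.73 for USP2. USP46-DT (0.26 ± 0.29, SE) and USP3-AS1 (0.42 ± 0.26, SE) did not pass either. The other 6 such transcripts, of 10 in all, had at most 3 recovered reads in any sample and were not tested.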
